A study of Homo sapiens with 6 samples.

Results

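The EGF receptor family was followed through 10 genes of the 58302 entries in the deposited count table: the receptors EGFR, ERBB2 and ERBB3, the ligands AREG, EREG, HBEGF, TGFA, EPGN and BTC, and the receptor inhibitor ERRFI1. The members were named by symbol, and all 10 were found in the table. Of these, 9 had enough counts to be tested, and BTC did not. The cells were Ker-CT, a line of human skin keratinocytes immortalised with telomerase and CDK4, so every library comes from 1 line. All cultures, controls included, were held for 24 h in M5, a mixture that models psoriatic inflammation with oncostatin M, TNF-α, IL-1α, IL-17A and IL-22 at 10 ng/ml apiece. In 3 libraries the cells had received siRNA against KMT2C (siKMT2C), a histone H3 lysine 4 methyltransferase, and in 3 they had received control siRNA (siNC). The comparison asks what loss of KMT2C does to expression in such cells, and no culture without M5 was used here.

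EGFR is a cell-surface tyrosine kinase that pairs with itself or with its relatives once a ligand binds. The ligands are made as membrane-anchored precursors that metalloproteases of the ADAM family cut free, and keratinocytes release and sense them in an autocrine loop. In epidermis this loop is known for driving proliferation, migration and wound closure. ERBB2 has no known ligand of its own and acts as a partner, and ERBB3 binds neuregulins but has an impaired kinase. ERRFI1, also called MIG6, binds the active receptor kinase and blocks it.

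Library depth ran from 14409277 to 17539519 counts. KMT2C stood at 30.0 ± 2.45 CPM (counts scaled by library size, SD, n = 3) in siKMT2C and 80.8 ± 7.69 CPM in siNC, or 37.1% of control with a 95% interval of 29.7% to 46.5% (edgeR adjusted p = 0.00786). That adjusted p was above 0.05 without siKMT2C replicate 1 (0.0634), siKMT2C replicate 2 (0.0507) or siNC replicate 2 (0.0593). All 10 keratinocyte markers were expressed and tested, and their summed level was 15183 to 20929 CPM in siKMT2C and 15088 to 23564 CPM in siNC. edgeR called none of them (3 at an unadjusted p under 0.05). The groups did not overlap in TP63 (log2 fold change -0.69), ITGA6 (-0.51) and COL17A1 (0.72), which DESeq2 called. Among all genes, 12.3% lay below control without overlap and 11.8% above it. DESeq2 called 5.67% of all genes, and 16.9% had an unadjusted edgeR p under 0.05. The 7 fibroblast markers summed to 13.5 to 17.5 CPM in siKMT2C and 20.7 to 31.1 CPM in siNC, mostly from COL1A1, while PDGFRA was at 0 in 5 libraries. Of the 4 that could be tested, edgeR called none (2 at an unadjusted p under 0.05). DESeq2 called COL1A1 (edgeR log2 fold change -0.77) and the scarce DCN (-1.57), which both lay below control without overlap. The part of these marker differences in the results below was not tested. Of the melanocyte, immune and endothelial markers, 3 of 6, 4 of 6 and 2 of 3 were at 0 in every library. The melanocyte markers summed to 2.03 to 3.06 CPM in siKMT2C and 2.31 to 3.38 CPM in siNC, from PMEL, MLANA and TYRP1. The immune markers summed to 12.7 to 14.4 CPM in siKMT2C and 8.70 to 13.5 CPM in siNC, nearly all from CD68. The endothelial markers summed to at most 0.0692 CPM in any library.

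The promoters of 3 ligands are shown first, because AREG and EREG, the most abundant ligands, and HBEGF, the 1 called member, lay above control in every siKMT2C library. So did TGFA, whose promoter is not printed. Each line gives the 130 bases before the RefSeq start (GRCh38.p14), 5′ to 3′ on the gene's strand. Capitals mark matches on either strand to the cyclic AMP response element TGACGTCA, its shorter core TGACG, the TATA motif TATAAA or the GC box GGGCGG.
AREG, chr4:74445006-74445135, plus strand: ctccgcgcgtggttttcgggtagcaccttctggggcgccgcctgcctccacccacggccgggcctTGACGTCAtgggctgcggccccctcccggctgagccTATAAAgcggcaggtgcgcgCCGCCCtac
EREG, chr4:74365015-74365144, plus strand: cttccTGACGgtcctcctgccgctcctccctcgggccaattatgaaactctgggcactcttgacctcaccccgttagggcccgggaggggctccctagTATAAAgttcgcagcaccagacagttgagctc
HBEGF, chr5:140346604-140346733, minus strand: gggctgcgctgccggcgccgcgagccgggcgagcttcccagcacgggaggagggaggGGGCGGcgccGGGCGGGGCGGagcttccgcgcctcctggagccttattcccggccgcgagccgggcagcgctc

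AREG and EREG both held TATAAA and TGACG, which HBEGF lacked. TATAAA began 29 bases before the start in AREG and 32 bases before it in EREG, and also 29 bases before it in their neighbour EPGN. AREG held the full TGACGTCA 65 bases before the start, EREG held TGACG at 125 bases and EPGN at 44 bases. TGACG was not limited to these neighbours, as TGFA on chromosome 2 held it at 154 bases, without TATAAA. BTC, also on chromosome 4, held no match to any of the motifs. HBEGF had no TATAAA or TGACG in the 250 bases searched. It had 3 GC boxes within 73 bases of its start, the last 2 of them overlapping. On the opposite strand were 2 more, at 163 and 176 bases. GC boxes were not particular to HBEGF. They were also in TGFA (at 73, 131 and 204 bases), EGFR (36 and 204), ERRFI1 (70) and AREG (9). Of 35116 RefSeq promoter windows of 250 bases, 10.7% held TATAAA, 1.65% TGACGTCA, 21.2% TGACG (which lies inside TGACGTCA) and 42.6% GGGCGG. The AP-1 motif TGACTCA, present in 4.2% of windows, was in none of the 9 members' windows. These are matches of letters, and binding was not measured.

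After KMT2C siRNA, HBEGF rose about 2-fold, and AREG, EREG and TGFA were above control in all 3 siKMT2C libraries without passing the test. EGFR, ERBB3 and ERRFI1 were below control in all 3, also without passing it. ERBB2, EPGN and BTC overlapped between the groups. Over all genes 1 of the 9 tested members was called higher, where 0.69% of 15063 genes were, and 0 were called lower, where 0.81% were (edgeR quasi-likelihood test, adjusted p under 0.05). DESeq2 called 3 members higher (HBEGF, TGFA, EREG) and 2 lower (EGFR, ERBB3), against 2.61% and 3.06% of 14191 genes. limma-voom called HBEGF alone, against 0.704% of genes higher and 0.717% lower. At an unadjusted p under 0.05 in edgeR there were 6 of 9 members and 2548 of all genes (16.9%). The groups did not overlap in 4 members that were higher and 3 that were lower, against 11.8% and 12.3% of all genes. Of all 226 calls, 104 were higher and 122 lower, a split that became 771 and 593 once GC content and transcript length were corrected for. The median log2 fold change was 0.35 over the 9 tested members and 0.00 over all genes, whose 10th and 90th percentiles were -0.53 and 0.44.

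**Figure D1:**
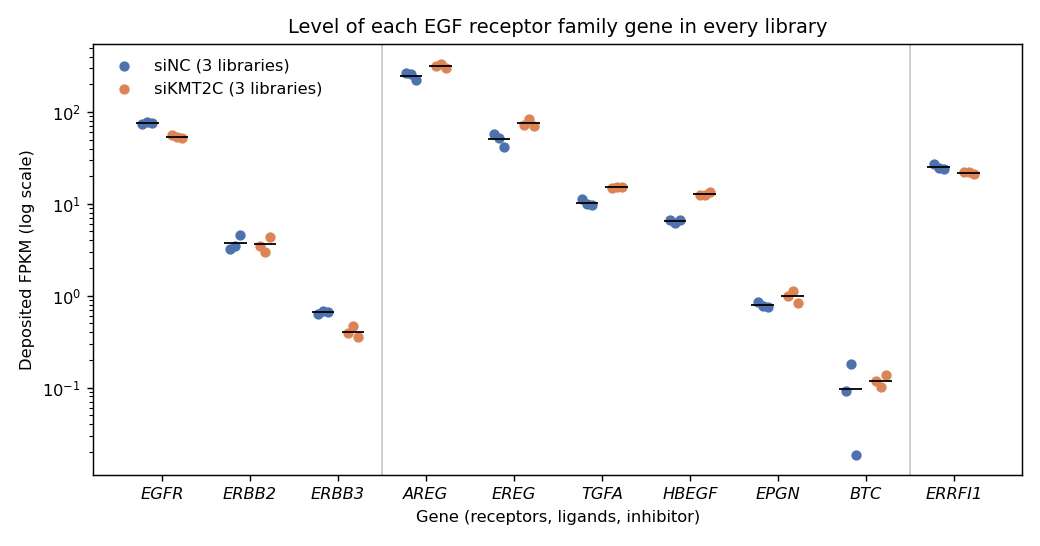
Deposited FPKM of the 10 genes in each library on a log axis, with 3 siNC libraries in blue, 3 siKMT2C libraries in orange and a bar at each group mean; grey lines part receptors, ligands and inhibitor. HBEGF, TGFA, EREG and AREG sit higher in siKMT2C, EGFR, ERBB3 and ERRFI1 lower, and AREG is the most abundant gene at 221 to 337 FPKM.

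Among the receptors, EGFR (chromosome 7, 55019021 to 55211628, GRCh38) was by far the most abundant. It stood at 951, 911 and 879 CPM in siKMT2C replicates 1 to 3 and at 1235, 1294 and 1253 CPM in siNC. The groups were well apart, with the highest siKMT2C library far below the lowest control. The log2 fold change was -0.46 (SE 0.10, n = 3 per group), or 72.5% of control with a 95% interval of 61.5% to 85.4%, and the edgeR adjusted p was 0.0718. Over the 15 other settings tried that p ran from 0.0145 with DESeq2 to 0.275, and it was 0.0442 without siNC replicate 3. The log2 fold change ran from -0.49 to -0.34 over these settings, smallest in size after correction for GC content and length. In bulk RNA, fewer cells with a transcript and less of it per cell cannot be told apart.

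ERBB3 (chromosome 12, 56076799 to 56103505) was scarce. Its level was 7.64, 9.44 and 6.94 CPM in siKMT2C and 12.4, 13.4 and 12.8 CPM in siNC, so the groups did not overlap. The log2 fold change was -0.68 (SE 0.18), or 62.3% of control (95% interval 47.0% to 82.7%), with an edgeR adjusted p of 0.107 and a range of 0.0481 (DESeq2) to 0.353 over the other settings. ERBB2 (chromosome 17, 39687914 to 39730426) was at 61.9, 53.4 and 77.3 CPM in siKMT2C and 56.5, 60.6 and 79.7 CPM in siNC. The third replicate was the highest in both groups, and the groups overlapped fully. Its log2 fold change was -0.03 (SE 0.19), with a 95% interval from -0.48 to 0.41 that leaves room for a moderate change either way, and its sign differed between settings. ERBB2 overlaps MIEN1 and PGAP3 on the opposite strand, and since the use of strand in counting was not stated, reads of these genes cannot be told apart.

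HBEGF, heparin-binding EGF-like growth factor and the receptor of diphtheria toxin, lies on chromosome 5 (140332843 to 140346631). Its level was 53.0, 53.9 and 57.0 CPM in siKMT2C and 27.6, 25.5 and 27.3 CPM in siNC. Both groups were tight, with a gap between them many times the spread within either. HBEGF rose 2.04-fold (95% interval 1.67 to 2.48; log2 fold change 1.03, SE 0.12, n = 3 per group, edgeR adjusted p = 0.0135). The size stayed between 0.99 and 1.05 on the log2 scale in 15 other settings, with adjusted p from 4.83e-08 (DESeq2) to 0.0954, and the gene was called in 10 of them. With 1 library left out, the call held only without siNC replicate 3 (edgeR adjusted p = 0.0105). It was lost without siKMT2C replicate 1 (0.0954), 2 (0.0644) or 3 (0.0599), and without siNC replicate 1 (0.0504) or 2 (0.0945).

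TGFA, the ligand first known from transformed cells, lies on chromosome 2 (70447280 to 70554193). It was at 107.6, 111.1 and 111.5 CPM in siKMT2C and 80.4, 71.3 and 69.8 CPM in siNC. All 3 siKMT2C libraries were nearly alike and lay clear of every control. The log2 fold change was 0.58 (SE 0.12), or 1.49-fold (95% interval 1.23 to 1.81), and the edgeR adjusted p was 0.0655. Over the other settings it ran from 0.00664 after correction for GC content and length to 0.264, and it was 0.0483 without siNC replicate 3.

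EPGN, EREG, AREG and BTC are neighbours on chromosome 4, where they lie in that order between 74308473 and 74794686. EREG (epiregulin) was at 469, 552 and 457 CPM in siKMT2C and 365, 337 and 261 CPM in siNC. The groups did not overlap, but siNC replicate 3 lay well below the other controls. The log2 fold change was 0.62 (SE 0.16), or 1.54-fold (95% interval 1.2 to 1.97), with an edgeR adjusted p of 0.103 that ran from 0.00382 (GC and length correction) to 0.294. Without siNC replicate 3 the log2 fold change was 0.48.

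AREG (amphiregulin), known as an autocrine growth factor of keratinocytes, was at 703, 759 and 669.6 CPM in siKMT2C. In siNC it was at 576, 575 and 480.1 CPM, with replicate 3 again the lowest. The log2 fold change was 0.39 (SE 0.12), or 1.31-fold (95% interval 1.07 to 1.59). The edgeR adjusted p was 0.166, and it was above 0.05 in all 15 other settings, at 0.0559 to 0.416. In these settings the log2 fold change ran from 0.27, after correction for GC content and length, to 0.43.

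The outer genes of the cluster were barely expressed. EPGN (epigen) was at 2.87, 3.34 and 2.46 CPM in siKMT2C and 2.46, 2.21 and 2.14 CPM in siNC, where the lowest siKMT2C library met the highest control. Its log2 fold change was 0.35 (SE 0.23), with a 95% interval from -0.19 to 0.88 (edgeR adjusted p = 0.51). BTC (betacellulin) had 6, 5 and 7 counts in siKMT2C and 5, 8 and 1 in siNC, 32 in all, too few for a test.

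ERRFI1 (chromosome 1, 8004404 to 8026308), the inhibitor that EGFR signalling itself induces, was at 150.8, 152.6 and 142.8 CPM in siKMT2C. In siNC it was at 179.4, 165.4 and 160.7 CPM. The groups were apart by a small margin. The log2 fold change was -0.18 (SE 0.11), or 88.3% of control, with a 95% interval of 73.6% to 105.8% (edgeR adjusted p = 0.477).

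**Figure D2:**
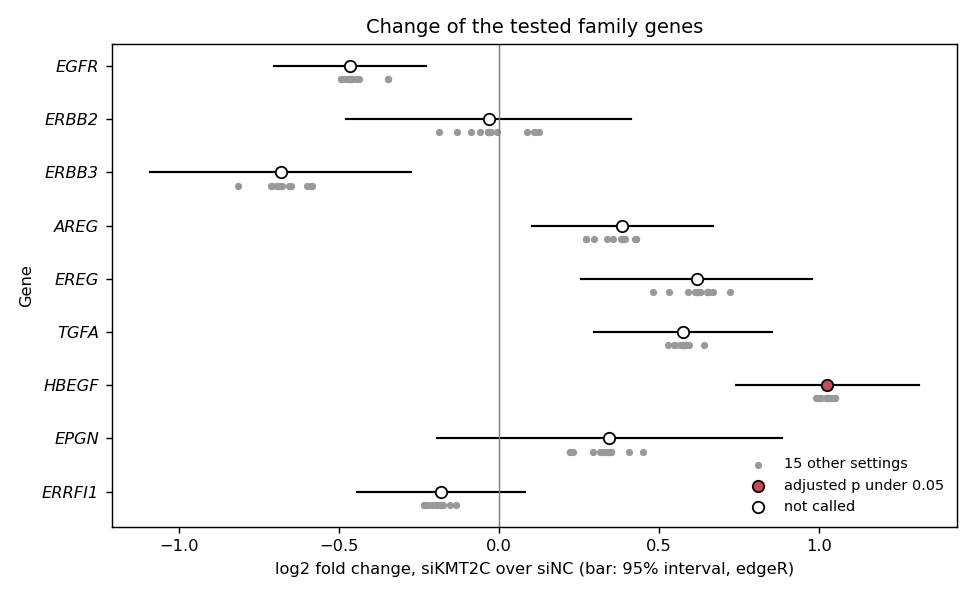
log2 fold change of the 9 tested genes, siKMT2C over siNC, with 95% intervals from edgeR; grey points give the same value in 15 other settings, and red marks an adjusted p under 0.05. HBEGF at 1.03 is the 1 called gene, and the grey points of ERBB2 fall on both sides of 0.

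Levels of different genes were compared on the deposited FPKM scale, which divides counts by gene length. AREG was highest in every library, at 318, 337 and 302 FPKM in siKMT2C and 264, 262 and 221 FPKM in siNC. It made up 74.9% to 75.8% of the summed FPKM of the 6 ligands in siKMT2C and 77.6% to 79.1% in siNC. HBEGF was a small part, 2.80% to 3.36% in siKMT2C and 1.85% to 2.36% in siNC.

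EGFR and EREG came next, in a different order in each group. EREG was at 72.8, 84.1 and 70.7 FPKM in siKMT2C, above EGFR at 56.6, 53.2 and 52.1 FPKM. In siNC, EREG was at 57.4, 52.6 and 41.2 FPKM, below EGFR at 74.4, 77.4 and 75.8 FPKM. The gene lengths behind the deposited FPKM were 1.11 to 3.66 times the longest coding transcript of the members, so the order was checked with transcript lengths as well. EREG was then at 1.05 to 1.29 times EGFR in siKMT2C and 0.44 to 0.63 times EGFR in siNC, so both orders held.

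The remaining members had the same order in both groups on this scale. ERRFI1 was at 21.1 to 22.3 FPKM in siKMT2C and 24.2 to 26.9 in siNC. TGFA came next at 14.9 to 15.4 and 9.81 to 11.3 FPKM, then HBEGF at 12.6 to 13.5 and 6.12 to 6.67 FPKM. TGFA was 1.14 to 1.2 times HBEGF in siKMT2C and 1.49 to 1.69 times HBEGF in siNC, so the gap between these neighbours was smaller in siKMT2C. Lower still were ERBB2 at 2.98 to 4.37 and 3.25 to 4.6 FPKM and EPGN at 0.84 to 1.12 and 0.75 to 0.85 FPKM. ERBB3 was at 0.35 to 0.47 and 0.64 to 0.69 FPKM, and BTC at 0.10 to 0.14 and 0.018 to 0.18 FPKM. With transcript lengths the order in siNC differed, where ERBB2 (11.9 to 16.8) then lay above HBEGF (10.7 to 11.7) and ERBB3 (2.11 to 2.26) above EPGN (1.81 to 2.08). ERBB2 also overlapped TGFA (16.4 to 18.8) there and was above it in siNC replicate 3. In siKMT2C these orders held, with HBEGF at 22.1 to 23.7 above ERBB2 at 10.9 to 16.0, and EPGN at 2.04 to 2.73 above ERBB3 at 1.16 to 1.56.

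Set against its receptor, ligand transcript was more abundant in siKMT2C. The 6 ligands summed to 7.41, 8.46 and 7.73 times the FPKM of EGFR in siKMT2C replicates 1 to 3 and to 4.57, 4.28 and 3.68 times in siNC. HBEGF was at 0.223, 0.237 and 0.26 times EGFR in siKMT2C and 0.0896, 0.0791 and 0.0871 times in siNC. No library of one group reached the range of the other for either ratio. That follows from the single genes, as EGFR lay lower and AREG, EREG, TGFA and HBEGF higher in every siKMT2C library than in any control. These ratios join genes chosen with their direction known and carry no test. EGFR made up 91.7% to 93.9% of the summed receptor FPKM in siKMT2C and 93.5% to 95% in siNC, overlapping ranges on a scale that puts ERBB2 and ERBB3 lower than transcript lengths do. Proteins, shedding and receptor activity were not measured.

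**Figure D3:**
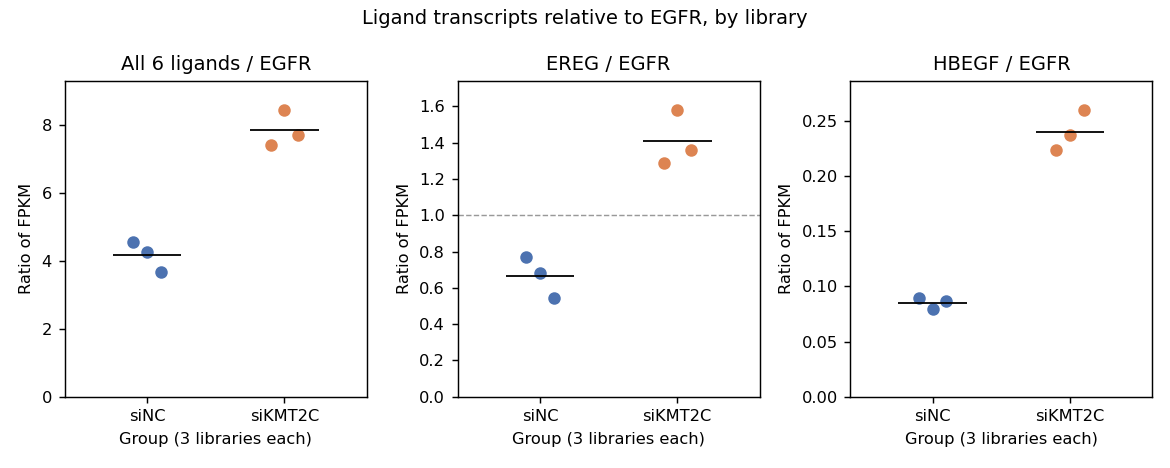
FPKM of all 6 ligands, of EREG and of HBEGF divided by that of EGFR in each library, with bars at the group means; the dashed line marks equal FPKM. EREG lies below EGFR in the 3 siNC libraries and above it in the 3 siKMT2C libraries.

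An siRNA can lower other transcripts that match its seed. The labels do not state the siRNA sequences, but 2 7-mers had been picked out of these data in earlier work for their link with the direction of change. Their copies in the longest coding transcript of each member were read out, with 29 bases printed for each, 5′ to 3′ on the transcript, and the 7-mer in capitals.
HBEGF, coding sequence, chr5:140346027-140346055, minus strand: ctggagcggctTCGGAGAgggctagctgc
EGFR, 3′ UTR, chr7:55210260-55210288, plus strand: tgcatttaccaGTATAAActagacatgtc
TGFA, 3′ UTR, chr2:70450179-70450207, minus strand: caatgtaaaaaGTATAAAaccccttcaga

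These were the 3 copies found among the members. Counting coding sequences and 3′ UTRs together, TCGGAGA occurred in 9.76% of 12276 tested protein-coding genes, whose median log2 fold change was 0.05, against -0.02 for genes without it. GTATAAA occurred in the 3′ UTR of 17.2%, with a median log2 fold change of -0.11 against 0.01. As both 7-mers were picked for such a difference in these same libraries, the medians describe that choice and test nothing. Among the members, GTATAAA was in EGFR, which lay below control, and in TGFA, which lay above it. TCGGAGA was in HBEGF, which lay above control, and the 7 other members carry neither. Without the siRNA sequences, neither 7-mer can be tied to an siRNA. KMT2C, the intended target, carries both. The part of these 7-mers in the members' values was not tested.

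Of the other ERBB genes, 2 of 6 could be tested and neither was called, by edgeR, DESeq2 or limma-voom. Both had an unadjusted edgeR p under 0.05, as did 16.9% of all genes. NRG1, a neuregulin that binds ERBB3, was at 28.4, 28.3 and 28.4 CPM in siKMT2C and 38.5, 37.0 and 40.3 CPM in siNC. Its log2 fold change was -0.44 (SE 0.12, edgeR adjusted p = 0.123). NRG2 was at 0.63 against 1.59 mean CPM (log2 fold change -1.33, SE 0.48, edgeR adjusted p = 0.217). ERBB4, EGF and NRG4 were too low to test, and NRG3 had 0 counts in every library.

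Of 12 tested genes that shed the ligands or restrain shedding, edgeR and limma-voom called none (3 had an unadjusted edgeR p under 0.05). DESeq2 called 2, TIMP3 and ADAM15. The median log2 fold change of the 12 was -0.15. Of all genes, 16.9% had an unadjusted edgeR p under 0.05 and DESeq2 called 5.67%. In this list 1 gene lay above control without overlap and 3 below it, where 11.8% and 12.3% of all genes did. The protease inhibitor TIMP3 was at 97.5, 101.0 and 136.1 CPM in siKMT2C and 188.0, 176.2 and 211.9 CPM in siNC, with no overlap (log2 fold change -0.78, SE 0.16, edgeR adjusted p = 0.065). The metalloprotease ADAM15 was at 118.1, 114.5 and 143.7 CPM in siKMT2C and 55.6, 64.3 and 87.2 CPM in siNC (log2 fold change 0.86, SE 0.19, edgeR adjusted p = 0.0734), and ADAM8 gave -0.53 (SE 0.16). The main EGFR ligand sheddases ADAM17 and ADAM10 overlapped between groups, with log2 fold changes of -0.27 (SE 0.16) and 0.22 (SE 0.15). Both were named after their values were seen.

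Downstream of the receptor, edgeR called 1 of 87 tested genes in 7 lists (22 at an unadjusted p under 0.05), DESeq2 called 9 and limma-voom 0. Over all genes, edgeR called 0.69% higher and 0.81% lower, DESeq2 called 5.67%, and 16.9% had an unadjusted edgeR p under 0.05. The edgeR call was PIK3R3, a regulatory subunit of PI3-kinase, which fell from 24.5 ± 2.25 to 14.3 ± 0.612 CPM (SD, n = 3; log2 fold change -0.78, SE 0.14, edgeR adjusted p = 0.0479). Its adjusted p was above 0.05 with no filter (0.0516), with limma-voom (0.0501) and when any library but siNC replicate 3 was left out (0.116 to 0.239). Next by p in the PI3K-AKT list were AKT1 (0.73, SE 0.27) and INPP4B (-0.38, SE 0.16). Both overlapped between the groups, with edgeR adjusted p of 0.222 and 0.283.

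The negative feedback genes of ERK, which receptor activity is known to induce, were split. Of 9 tested edgeR called none (4 at an unadjusted p under 0.05) and DESeq2 4, with a median log2 fold change of -0.15. The phosphatases DUSP7 (-0.58, SE 0.12), DUSP6 (-0.45, SE 0.11) and DUSP4 (-0.50, SE 0.13) had edgeR adjusted p of 0.0641, 0.0983 and 0.103. DUSP5, named after its values were seen as the fourth gene DESeq2 called, went the other way at 0.52 (SE 0.13, edgeR adjusted p = 0.104). In all, 4 of the 9 lay below control without overlap and 3 above it, where 12.3% and 11.8% of all genes did. Of all genes, 16.9% had an unadjusted p under 0.05 and DESeq2 called 5.67%. Among 10 ERK-induced transcripts edgeR called none (5 at an unadjusted p under 0.05), and DESeq2 called the 3 with the smallest edgeR p, PHLDA1 (-0.44, SE 0.10), IER3 (-0.41, SE 0.10) and MYC (1.76, SE 0.49). PHLDA1 was at 428, 466 and 439 CPM in siKMT2C and 607, 604 and 599 CPM in siNC, 2 ranges far apart. MYC was at 15.8, 20.9 and 62.9 CPM in siKMT2C and 9.27, 11.5 and 8.67 CPM in siNC. All 3 siKMT2C libraries were above every control, with replicate 3 far above the other two.

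The other 4 lists held no edgeR call, and DESeq2 called PTPN11 alone. Of 14 adaptors, PTPN11, the phosphatase SHP2, was at 397, 387 and 378 CPM in siKMT2C and 304, 264 and 266 CPM in siNC (log2 fold change 0.48, SE 0.11, edgeR adjusted p = 0.0848). SHC1 gave 0.35 (SE 0.12) and GAB1 -0.46 (SE 0.19). Among 16 ubiquitination and trafficking genes, whose median was 0.01, RNF41, a ligase for ERBB3, gave 0.50 (SE 0.15), CBLB -0.40 (SE 0.17) and CBL 0.19 (SE 0.13). Among 12 inhibitors and phosphatases, UBASH3B gave -0.54 (SE 0.16), LRIG1, which restrains ERBB receptors, -0.74 (SE 0.24), and SOCS3 -0.47 (SE 0.20). In the RAS-ERK cascade 12 of 14 genes had negative values with a median of -0.18, among them KSR1 (-1.18, SE 0.40) and NF1 (-0.43, SE 0.19). At an unadjusted edgeR p under 0.05 these 4 lists held 3, 2, 3 and 2 genes, a level that 16.9% of all genes reached. DESeq2 called 5.67% of all genes, and the edgeR median log2 fold change over all genes was -0.0025.

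**Figure D4:**
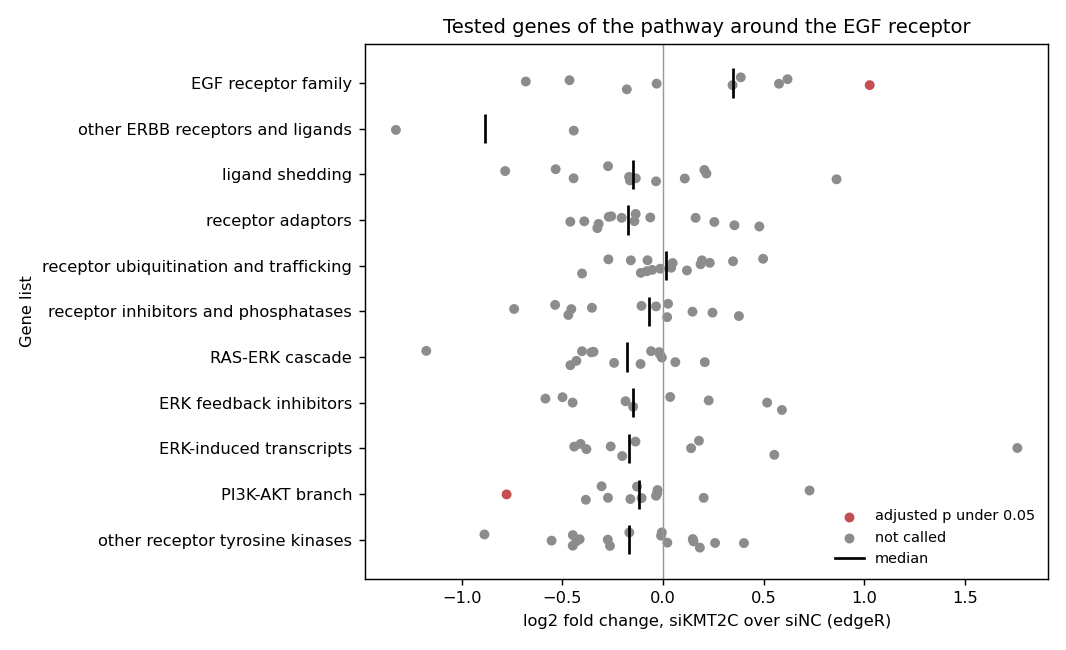
log2 fold change, siKMT2C over siNC, of each tested gene in the EGF receptor family and 10 lists around it, with a black bar at each median and red for an adjusted p under 0.05. HBEGF and PIK3R3 are the 2 red points.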

How the data were processed

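The authors deposited 1 table with read counts per gene and FPKM for 6 libraries, per the file headers. CASAVA 1.8 and TopHat2 2.0.6 are named, per the submitters' processing notes, beside a mouse build that the human Ensembl identifiers contradict. The counter, annotation and human build are not given in the sources used here. Symbols and GRCh38 coordinates come from GENCODE 29, and promoters from RefSeq (GRCh38.p14), where 9 of the 10 members had an entry.

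Counts were tested with edgeR 4.0.16 (filterByExpr, TMM scaling, robust quasi-likelihood F test, Benjamini-Hochberg adjustment over 15063 genes, called under 0.05). CPM used TMM-scaled library sizes. The 95% intervals use the test's degrees of freedom, and an SE is the log2 fold change over the root of F. Deposited FPKM served only for levels between genes. Alternatives used limma 3.58.1 and DESeq2 1.42.0. On simulated data for this comparison (14832 genes), the step recovered 3.03% of simulated 1.5-fold changes, 38.7% of 2-fold changes and 85.9% of 4-fold changes. Nothing says the replicates were separate cultures, so p-values cover only the spread between these libraries. Members, lists and tests were chosen with earlier results of these data known. Named genes are all members, KMT2C and, of each list, called genes plus the 3 with the smallest p, apart from 1 gene that is not reported here.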

Additional observations from a re-analysis of the deposited data

How the results depend on the processing

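The count of called genes, 226 in all and 1 of the members, was sensitive to the model. DESeq2 gave 805 genes and 5 members, a correction for GC content and length 1364 and 4, and that correction with the replicate block 1373 and 4. The replicate block alone gave 968 genes and 5 members (HBEGF, EREG, TGFA, EGFR and ERBB3). Same-numbered libraries deviated from their group means with correlations of 0.02, 0.11 and 0.39, and siKMT2C replicate 2 correlated best with siNC replicate 1 (0.32), so the numbers were not taken to pair the cultures. With 1 library left out, 16 (without siNC replicate 2) to 620 genes (without siNC replicate 3) and 0 to 3 members were called. The causes were not tested. Apart from ERBB2, the tested members kept their direction in 15 of 15 settings. ERBB2 was at 0.11 after GC and length correction with or without the block, and at -0.19 to 0.13 with 1 library left out. Other scalings and filters and limma-voom left 1 member called, HBEGF. BTC and EPGN, at 32 and 252 counts over 6 libraries, are limited by depth. The lengths of the longest coding transcripts were tried for levels after seeing the data.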

Other observations

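Receptor tyrosine kinases outside the EGF receptor family showed no edgeR call among 17 tested (4 at an unadjusted p under 0.05; DESeq2 called 1, RYK, and limma-voom 0), with 11 negative values and a median log2 fold change of -0.17. The insulin receptor INSR, at 2.57 against 4.77 mean CPM, gave -0.89 (SE 0.21, edgeR adjusted p = 0.0825). The WNT co-receptor RYK gave -0.55 (SE 0.14, edgeR adjusted p = 0.0937) and the growth factor receptor IGF1R -0.43 (SE 0.13, edgeR adjusted p = 0.146). All 3 lay below control without overlap. In all, 4 of the 17 lay below control without overlap and 0 above it, where 12.3% and 11.8% of all genes did. Of all genes, 16.9% had an unadjusted edgeR p under 0.05, DESeq2 called 5.67%, and the median log2 fold change was -0.0025.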
